A study of Mus musculus with 6 samples.

Results

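The genes described here are the histone genes of the replication clusters, measured in collecting duct cells of newborn KO and WT mice. In KO mice Bdkrb2, the gene for the B2 receptor of bradykinin, was floxed for deletion by Hoxb7-driven Cre, and WT mice had the unfloxed gene. The histone genes were chosen by name: the symbol begins with H1f, H2ac, H2bc, H3c or H4c followed by a number, or has an older form such as Hist1h1b. The gene's probe also had to be well above background in the sample channel (Cy5), by the scanner software's own flag, on at least 3 of the 6 arrays. Of 70 mouse genes with such a symbol in the RefSeq table used for names, 47 had a probe named on the array and 43 passed, among 14771 genes that passed in all. The 43 are 8 genes of linker histone H1, 11 of H2A, 9 of H2B, 7 of H3 and 8 of H4. On GRCm38.p6, 33 of them lie between positions 21722044 and 23934913 of chromosome 13 and 7 between positions 96219885 and 96270192 of chromosome 3. The other 3, H1f0, H1f10 and H1f8, match the rule by name and lie outside the clusters. Their genes are short: the median gene spans 493 bases, against 21848 bases over all genes that passed.

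The study compared 3 KO samples with 3 WT samples, all of strain C57BL/6 and all from animals on food with 5% sodium. KO pups carried the Hoxb7-driven Cre (Hoxb7cre+), the floxed Bdkrb2 allele on both chromosomes (Bdkrb2f/f) and the R26RtdTomato reporter. WT pups carried Hoxb7cre+, R26RtdTomato and Bdkrb2+/+, so Cre and reporter are common to both groups. RNA came from GFP- and dsRED-positive cells sorted from kidneys at postnatal day 1, and Hoxb7-Cre acts in the ureteric bud lineage that forms the collecting duct. The matings named in the labels are between floxed parents, and the number of animals or litters behind a sample is not given, so litter and genotype cannot be told apart and p-values measure the spread between these samples. Each array set the Cy5-labelled RNA of 1 sample against the Cy3-labelled RNA of WT replicate 1, which makes the array of WT replicate 1 a comparison of that RNA with itself. All values below are log2 ratios of Cy5 to Cy3 unless said otherwise, and a difference is KO minus WT. No salt-free group was among the samples.

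Replication wraps new DNA in new nucleosomes, built from the core histones H2A, H2B, H3 and H4 and closed by a linker histone H1. Most of the genes for these proteins lie in clusters of short, intronless copies that are transcribed in S phase. Their messenger RNAs end in a stem-loop bound by the stem-loop binding protein SLBP and not in a poly(A) tail, and they are degraded when DNA synthesis stops. Histones laid down outside S phase come from separate genes, such as H3f3a, H3f3b, H2az1 and H1f0, with ordinary polyadenylated messages. In the newborn kidney, cell division goes on in the ureteric tips and in the nephron progenitors around them.

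The array of KO replicate 1 stands apart and touches many of the values below. Across all 14771 genes its ratios correlated with those of KO replicates 2 and 3 at r = 0.82 and 0.80, whereas KO replicates 2 and 3 correlated with each other at r = 0.94. The WT arrays correlated less, at r = 0.32 and 0.35 for WT replicate 1 with WT replicates 2 and 3, and 0.53 between the latter. By r, KO replicate 1 thus stands apart within the KO group only. The weight estimated for KO replicate 1 by limma was 0.254, against 0.838 to 1.85 for the other arrays. Of its spots 403 were marked as outliers, against 196 to 246. Bdkrb2 itself was well above background on 0 of the 6 arrays, so its level gives no check of the labels. Of the collecting duct markers, 9 of 9 principal cell genes tested and 10 of 10 intercalated cell genes were called lower in KO, with mean ratios of -2.30 to -1.88 and -2.38 to -2.06 on the KO arrays, against -0.24 to 0.02 and -0.45 to 0.18 on the WT arrays. Over all genes tested, 19.9% were called lower and 15.4% higher. Ureteric epithelium genes were called lower in 8 of 10, with mean ratios of -1.22 to -0.74 on the KO arrays, against -0.04 to 0.39 on the WT arrays. The other 2, Ret (difference -0.12) and Wnt11 (-0.28), were not called. Of the markers of neighbouring cells, 7 of 8 nephron progenitor genes and 7 of 8 stroma genes were called higher, with mean ratios of 1.59 to 2.19 and 1.22 to 1.44 on the KO arrays, against -0.06 to 0.10 and -1.19 to 0.07 on the WT arrays. Other neighbours differed the other way: 7 of 8 endothelium genes and 6 of 6 erythroid genes were called lower, as were 2 of 8 proximal tubule genes. Of 7 immune genes 5 were called higher and 1 lower, and of 6 podocyte genes 1 was called higher. The erythroid mean was -2.74, -3.02 and -2.98 on the arrays of KO replicates 1, 2 and 3. On those of WT replicates 1, 2 and 3 it was -0.11, -1.39 and 0.21. WT replicate 2 was also the lowest WT array in the principal cell (-0.24), intercalated cell (-0.45), proximal tubule (-0.90) and podocyte (-0.98) means. It was not the lowest in the nephron progenitor, stroma, endothelium, ureteric epithelium or immune means. Among the histone genes, WT replicate 2 was the lowest WT array for H2ac6, H2bc8 and H1f2. It was also the lowest for H1f6, H1f8, H2ac1, H2ac21, H2bc1, H2bc4, H2bc21 and H2bc23, and for no other of the 43. In the median over the 43 genes it was not the lowest, at 0.13, against 0.03 and 0.25 for WT replicates 1 and 3. Slc4a1 is in both the erythroid and the intercalated cell list. The part of these marker differences in the histone values was not tested, and in such bulk samples a change in the share of a cell type and in RNA per cell cannot be told apart.

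Few histone genes were called different between KO and WT cells with all arrays. By limma on all genes, with Benjamini-Hochberg adjustment and a threshold of 0.05, 3 of the 43 were called higher in KO (6.98%, against 15.4% of all genes tested) and 3 were called lower (6.98%, against 19.9%). In either direction this is 14.0% of the histone genes, against 35.3% of all genes, and 9 histone genes had an unadjusted p under 0.05 (20.9%, against 45.8% of all genes). The median difference over the 43 genes was -0.03, against -0.02 over all genes. Since the genes were proposed with results of these arrays in view, these counts describe the group and are no independent test of it. The 3 called higher were H4c9, H1f10 and H3c3, and the 3 called lower were H2bc8, H2ac6 and H1f2. All of them were among 18 genes with KO replicate 1 within 0.4 log2 units of the mean of KO replicates 2 and 3. In the 25 others KO replicate 1 was lower, and none was called. The median standard error was 0.20 in those 25, against 0.12 in the 18. A gene not called is thus not shown to be unchanged. The 6 called genes and H1f6 had no overlap between the KO and WT values, which makes 3 genes wholly above WT (24.0% of all genes) and 4 wholly below (28.2% of all genes).

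**Figure D1:**
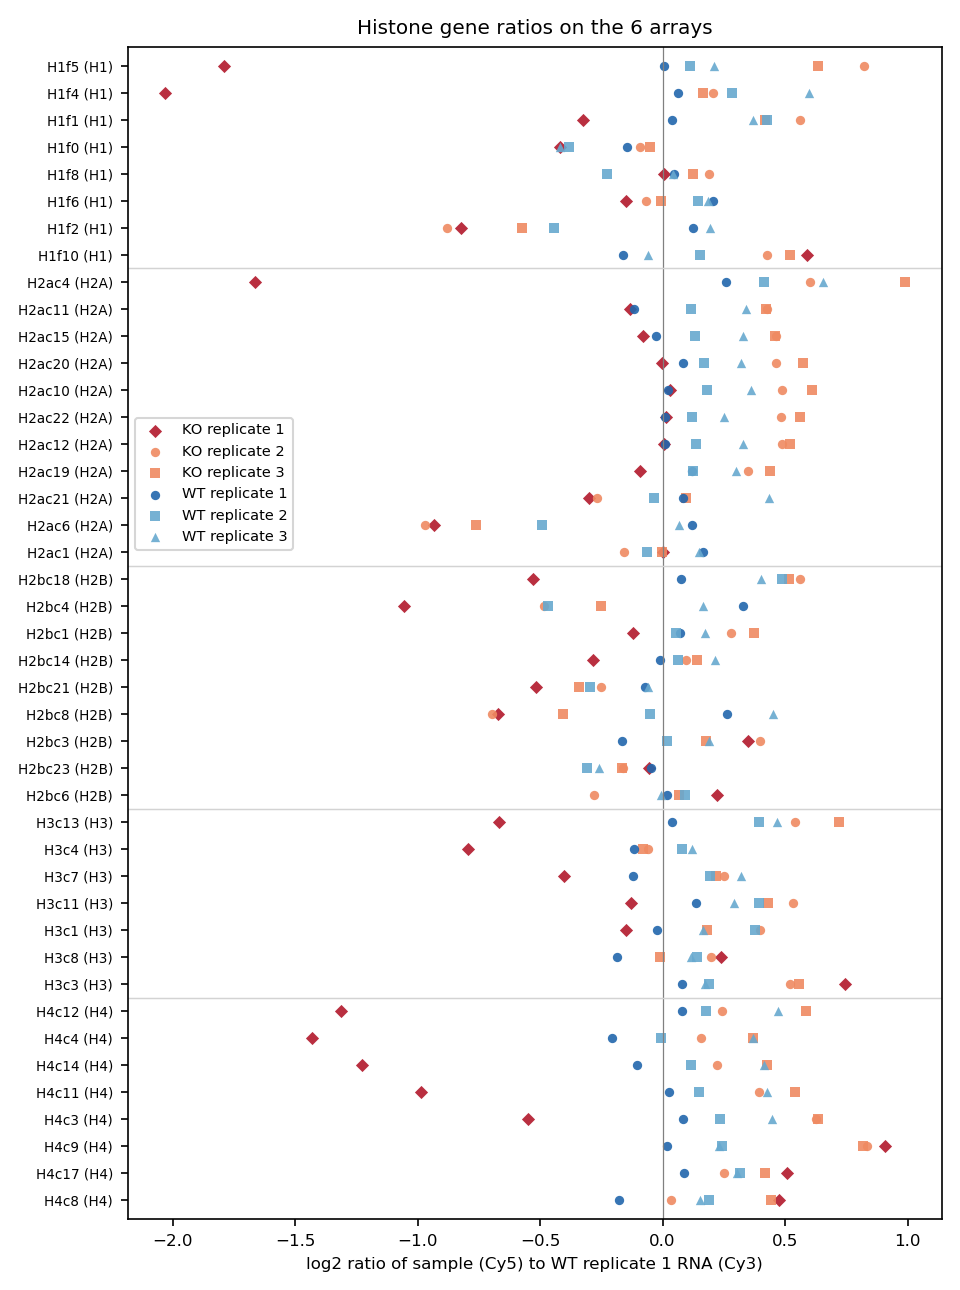
Log2 ratio of sample RNA to WT replicate 1 RNA for each of the 43 histone genes on each array, with genes down the page by class and, within a class, from the lowest to the highest position of KO replicate 1 relative to the other KO arrays. Red and orange marks are the KO arrays and blue marks the WT arrays. The dark red diamonds of KO replicate 1 lie far to the left for H1f5, H1f4, H2ac4 and 5 of the 8 H4 genes and together with the other KO marks for genes such as H4c9, H2ac6 and H2bc8.

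KO replicate 1 was low relative to the other KO arrays in most histone genes. In 30 of the 43 genes (69.8%, against 29.5% of all genes) that array had the lowest of the 3 KO values, and in 26 (60.5%, against 21.4% of all genes) it had the lowest of all 6. It was at least 0.4 log2 units below the mean of KO replicates 2 and 3 in 25 genes (58.1%, against 10% of all genes). It was at least 0.4 above that mean in none of them, where 10.2% of all genes were. It was at least 1 unit below in 10 genes (23.3%, against 2.65% of all genes). The limits of 0.4 and 1 were chosen after the values were seen, and with 1 array on the one side these shares are descriptions with no test. The median position of KO replicate 1 relative to the other KO arrays was -0.49 over the 43 genes and 0.08 over all genes.

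The 10 genes at least 1 unit below comprised 5 of the 8 H4 genes, 2 H1 genes and 1 gene each of H2A, H2B and H3. H1f5 (Hist1h1b, a linker histone gene) had ratios of -1.79, 0.82 and 0.64 in KO replicates 1, 2 and 3, against 0.00, 0.11 and 0.21 in WT replicates 1, 2 and 3. KO replicate 1 was thus below every WT value and the other KO replicates above every WT value, a gap of -2.52 that ranked 7 from the lowest among the 14771 genes. H2ac4 had -1.66, 0.60 and 0.99 in KO cells, against 0.26, 0.41 and 0.65 in WT cells, with a gap of -2.46 and rank 8. H1f4 (the linker histone H1.4) had -2.03, 0.21 and 0.17 in KO cells, against 0.06, 0.28 and 0.60 in WT cells, with a gap of -2.22 and rank 13. For H1f4 the other KO replicates lay within the range of the WT values. H4c12 had -1.31, 0.24 and 0.59 in KO cells, against 0.08, 0.18 and 0.47 in WT cells, and its other probe gave -1.10, 0.32 and 0.48 in KO cells, against -0.14, 0.11 and 0.35 in WT cells. The remaining 6 were chosen for mention after their values were seen: H4c4 at -1.69, H4c14 at -1.55 (by its brighter probe), H4c11 at -1.46, H3c13 at -1.30, H4c3 at -1.18 and H2bc18 at -1.07 relative to the mean of the other KO arrays. Another probe of H4c14, much dimmer and well above background on 4 arrays, did not show the gap: it gave 0.07, 0.09 and 0.08 in KO cells, against -0.12, 0.05 and 0.05 in WT cells. Genes of other kinds were displaced on this array too: 391 genes in all lay at least 1 unit below, and the 6 below H1f5 in rank were Ghrl, Fam102b, Slc38a7, Actl6a, Hspb1 and Kctd1.

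The displaced and the undisplaced genes were neighbours in the same clusters. On chromosome 13, 7 of 33 genes lay at least 1 unit below and 13 lay within 0.4, and on chromosome 3, 3 of 7 lay at least 1 unit below and 2 lay within 0.4. The classes differed in their medians, which were -1.32 for H4, -0.61 for H3, -0.51 for H2A, -0.25 for H1 and -0.22 for H2B. With the scanner program's own dye-normalised ratios they were -1.43 for H4, -0.64 for H3, -0.51 for H2A, -0.40 for H1 and -0.48 for H2B. The distance of H1 and H2B from H2A thus depended on the processing. Within H4 the values fell into groups without any between: 5 genes from -1.73 to -1.18, and H4c9, H4c17 and H4c8 at 0.08, 0.17 and 0.24. Nearest the limit of 0.4 were H2bc14 at -0.40, counted as at least 0.4 below, and H1f0 at -0.35, counted as within 0.4. The split also went with probe signal. The mean log2 Cy5 signal was 9.34 to 14.67 in the genes at least 1 unit below, and 4.64 to 10.32 in those within 0.4. By the scanner program's own dye-normalised ratios, H2bc8 (-0.57), H2ac21 (-0.56) and H1f0 (-0.42) left the group within 0.4 downward. H2bc6 (0.52) left it upward. How far signal sets the split was not tested.

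**Figure D2:**
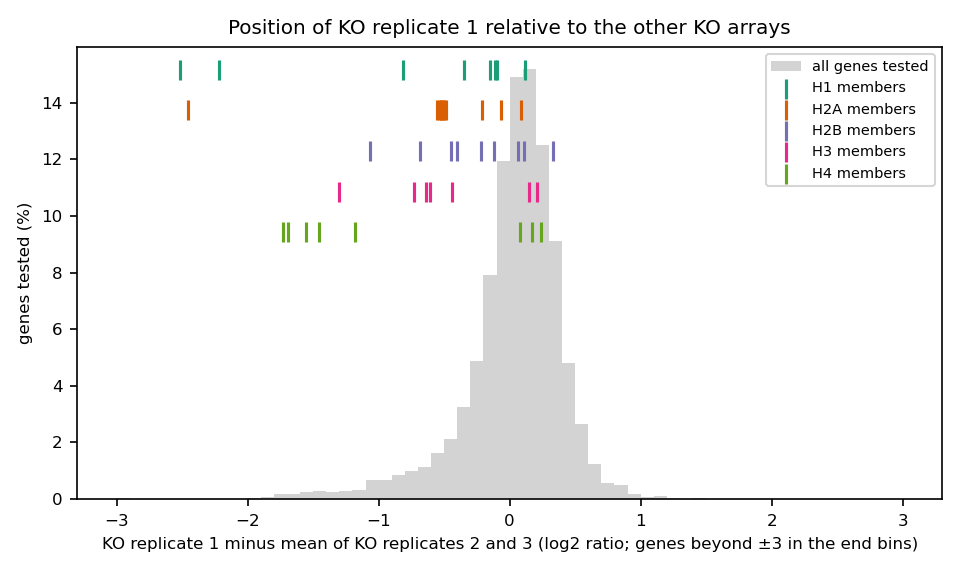
KO replicate 1 minus the mean of KO replicates 2 and 3 on the x axis, in log2 ratio; the grey bars give the percentage of all 14771 genes in each bin and each coloured tick is 1 histone gene in the row of its class. All genes centre at 0.08, while the histone ticks run from -2.52 to 0.33 with a median of -0.49.

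Promoter sequences are shown for 3 pairs of chromosome 13 genes of the same class, in each of which KO replicate 1 lay far below the other KO arrays in the gene given first and close to them in the gene given after it. Each is the RefSeq window of GRCm38.p6 from 250 bases before the gene's start to 50 after it, written 5′ to 3′ on the strand of the gene. Capitals mark the motifs searched, each on both strands. They are the CCAAT box, which reads ATTGG where it lies on the opposite strand, and the TATA box, searched as TATAAA. The others are the H1 box AAACACA, known from H1 promoters, and the octamer ATTTGCAT, known from H2B promoters, which reads ATGCAAAT where it lies on the opposite strand. No 2 of the motifs overlap each other in the windows shown.
H1f5 (chr13:21780576-21780875, minus strand): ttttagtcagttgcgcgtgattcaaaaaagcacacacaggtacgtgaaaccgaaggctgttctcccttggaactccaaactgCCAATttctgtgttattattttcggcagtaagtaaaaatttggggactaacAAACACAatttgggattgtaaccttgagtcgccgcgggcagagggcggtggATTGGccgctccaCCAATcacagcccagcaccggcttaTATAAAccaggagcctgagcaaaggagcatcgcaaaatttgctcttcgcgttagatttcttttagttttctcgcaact
H1f2 (chr13:23738557-23738856, plus strand): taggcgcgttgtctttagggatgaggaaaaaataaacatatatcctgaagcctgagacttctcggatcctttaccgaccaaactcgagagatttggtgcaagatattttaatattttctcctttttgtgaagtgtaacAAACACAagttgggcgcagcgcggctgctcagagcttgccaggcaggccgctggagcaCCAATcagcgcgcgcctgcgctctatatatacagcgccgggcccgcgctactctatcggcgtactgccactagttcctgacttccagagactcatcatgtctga
H2ac4 (chr13:23750838-23751137, plus strand): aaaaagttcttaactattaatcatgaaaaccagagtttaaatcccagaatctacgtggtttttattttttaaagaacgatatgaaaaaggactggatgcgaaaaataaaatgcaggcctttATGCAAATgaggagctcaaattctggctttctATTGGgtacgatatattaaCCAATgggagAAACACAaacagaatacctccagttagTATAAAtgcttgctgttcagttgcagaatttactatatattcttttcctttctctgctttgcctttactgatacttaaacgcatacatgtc
H2ac6 (chr13:23683910-23684209, minus strand): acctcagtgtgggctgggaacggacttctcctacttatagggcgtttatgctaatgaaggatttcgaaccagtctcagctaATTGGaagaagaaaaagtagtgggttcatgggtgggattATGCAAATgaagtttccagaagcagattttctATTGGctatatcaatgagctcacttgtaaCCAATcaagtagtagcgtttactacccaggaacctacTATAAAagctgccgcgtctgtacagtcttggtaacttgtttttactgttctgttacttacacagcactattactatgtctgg
H4c12 (chr13:21750504-21750803, minus strand): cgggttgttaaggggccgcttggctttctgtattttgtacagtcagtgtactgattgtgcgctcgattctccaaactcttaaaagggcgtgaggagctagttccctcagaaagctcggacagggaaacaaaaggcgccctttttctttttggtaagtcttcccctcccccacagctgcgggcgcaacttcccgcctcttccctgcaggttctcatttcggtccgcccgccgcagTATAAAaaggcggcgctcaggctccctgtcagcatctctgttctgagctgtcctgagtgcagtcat
H4c9 (chr13:22041313-22041612, minus strand): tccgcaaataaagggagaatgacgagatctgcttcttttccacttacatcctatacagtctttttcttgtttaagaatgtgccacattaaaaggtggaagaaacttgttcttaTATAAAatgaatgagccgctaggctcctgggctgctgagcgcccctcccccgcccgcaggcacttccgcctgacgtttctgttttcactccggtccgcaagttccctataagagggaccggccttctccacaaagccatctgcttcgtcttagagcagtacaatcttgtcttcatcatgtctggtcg

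H1f5 and H1f2 both hold an H1 box, 117 and 112 bases before the start, followed by CCAAT at 53 and 54 bases before it. TATAAA is found 28 bases before the start of H1f5, and no match to these letters is in the H1f2 window. H2ac4 and H2ac6 both hold the octamer on the other strand, 129 and 130 bases before the start, a CCAAT at 78 and 69 bases, and TATAAA at 41 and 32 bases. In addition H2ac4 holds AAACACA 68 bases before the start. H4c12 and H4c9 hold neither CCAAT, the H1 box nor the octamer, and TATAAA lies 16 bases before the start of H4c12 and 137 bases before that of H4c9.

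Over the histone genes as a whole, 62 of the 70 were in the promoter table, with 63 windows. CCAAT was in 52 of the 63 windows (82.5%), against 37.4% of all 32851 windows of that length, and was in all 17 H2A, 15 H2B and 10 H3 windows but in 3 of 11 H4 windows. TATAAA was in 54.0% of the histone windows, against 13.6% of all windows. The octamer was in 20.6%, against 1.74% of all windows, and was found in 6 of 17 H2A and 7 of 15 H2B windows and in no H1, H3 or H4 window. The H1 box was in 14.3%, against 7.18% of all windows, and in 5 of 10 H1 windows. Among the genes tested, TATAAA was in 14 of the 21 windows of genes with KO replicate 1 at least 0.4 below the other KO arrays and in 7 of 18 windows of genes within 0.4. The octamer was in 6 of the 21 and 5 of the 18, and CCAAT in 19 and 13. The split at 0.4 rests on a single array and on a limit chosen after the values were seen. It also went with probe signal, as said above. Whether the motifs differ between the groups it makes was not tested. These matches are descriptions of the letters in the windows, and no binding was measured.

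The displacement lay in the dye that carried the KO RNA. In Cy5 alone, scaled to the 75th percentile of each array, KO replicate 1 was below the mean of the other KO arrays by a median of -0.51 over the 43 genes, with a lowest value of -2.59 for H1f5. In Cy3, which held the same WT replicate 1 RNA on every array, the median was -0.01 and the values ran from -0.88 to 0.24. For the 10 genes with KO replicate 1 at least 1 unit below the other KO arrays the medians were -1.49 in Cy5 and 0.04 in Cy3. The array of WT replicate 1 against itself gave ratios of -0.21 to 0.33 for the 43 genes, with the same RNA in both dyes. The program's own dye-normalised ratios gave a like gap for H1f5 and a like median, but not like class medians, as given above. H1f5 had -1.87, 0.92 and 0.66 in KO cells, against -0.11, 0.10 and 0.18 in WT cells. The median position of KO replicate 1 over the 43 genes was -0.51.

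**Figure D3:**
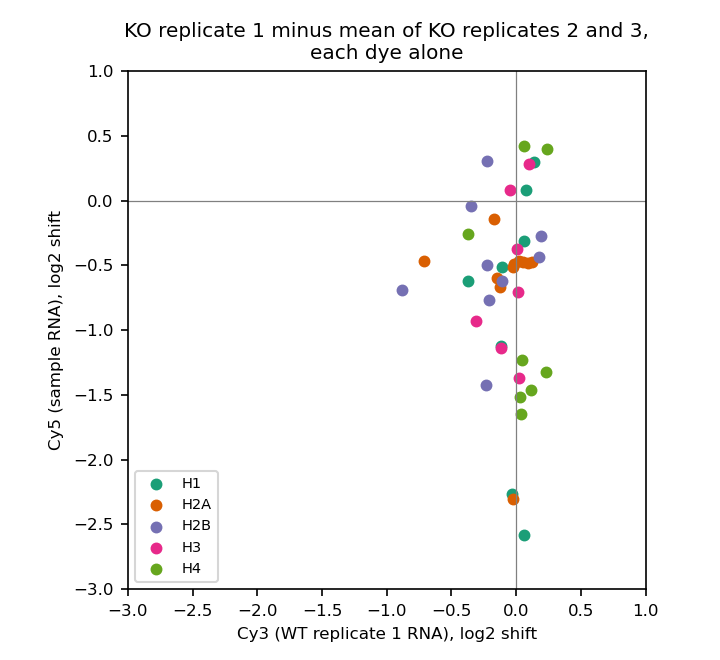
Each point is 1 histone gene, coloured by class, with KO replicate 1 minus the mean of KO replicates 2 and 3 in Cy3 (WT replicate 1 RNA, x axis) and in Cy5 (the sample's RNA, y axis), both in log2 units on the same scale. The points spread down the y axis to -2.59 in Cy5 while most stay near 0 in Cy3, where the lowest is -0.88.

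Without KO replicate 1, 9 of the 43 genes were called higher in KO (20.9%, against 16.0% of all genes in the same fit) and 3 lower (6.98%, against 22.6%), which together is 27.9%, against 38.6% of all genes. The median difference was then 0.21, against -0.02 over all genes. In 18 genes (41.9%, against 28.8% of all genes) KO replicates 2 and 3 both lay above all 3 WT values. These 18 include 7 H2A genes with nearly the same values, described below as a single uncertain measurement. The shares of 20.9% and 41.9% count such genes separately. H1f5 turned: its difference was -0.22 ± 0.61 (SE, n = 3 each) with an adjusted p of 0.802 by limma, and 0.62 ± 0.11 with an adjusted p of 0.00371 without KO replicate 1. H2ac22 was called at 0.40 without that array (adjusted p = 0.0218 by limma), against 0.23 with it (adjusted p = 0.301). None of the 10 genes with KO replicate 1 at least 1 unit below the other KO arrays was called with that array. They were chosen by a gap within the KO group, which raises their standard errors (median 0.41, against 0.12 over all genes). This lack of calls is thus no separate result. Without that array 2 of the 10 were called higher, H1f5 and H4c3, against 16.0% of all genes in that fit. The KO group then holds 2 arrays, and the count without KO replicate 1 is given as a description of how far 1 array decides it.

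**Figure D4:**
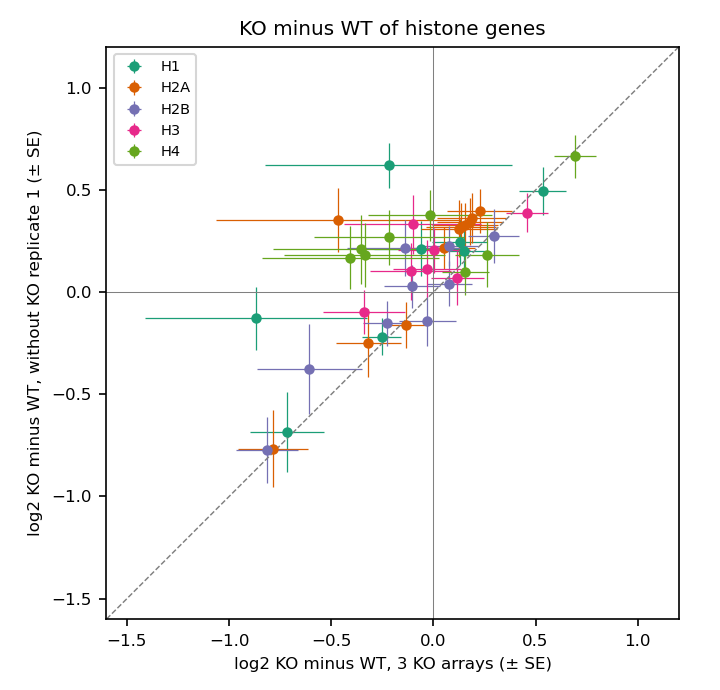
Difference KO minus WT of each histone gene, in log2 units with its standard error, from all 3 KO arrays (x axis) and without KO replicate 1 (y axis); the dashed line marks equal values. H1f5 lies left of 0 on the x axis and at 0.62 on the y axis, most points lie above the line, and the 6 genes called in both fits lie near it.

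Among the linker histones, H1f10 was called higher and H1f2 lower. H1f10 (H1fx), a replication-independent linker histone outside the clusters, had ratios of 0.59, 0.43 and 0.52 in KO cells, against -0.16, 0.15 and -0.06 in WT cells. Its difference was 0.54 ± 0.11 (SE, n = 3 each; adjusted p = 0.00862 by limma), 1.45-fold higher in KO, and it was 0.87 with median centring in place of loess. H1f2 (Hist1h1c, the linker histone H1.2) had -0.82, -0.88 and -0.57 in KO cells, against 0.12, -0.44 and 0.19 in WT cells. All KO values lay below the WT values, with WT replicate 2 nearest to them, and the difference was -0.72 ± 0.18 (SE, n = 3 each; adjusted p = 0.0171 by limma). The call of H1f2 was lost without KO replicate 2, WT replicate 1 or WT replicate 3, at adjusted p between 0.0605 and 0.0722 by limma, and with median centring in place of loess, at -0.43 (adjusted p = 0.192). H1f6, the testis linker histone, had -0.15, -0.07 and -0.01 in KO cells, against 0.20, 0.14 and 0.19 in WT cells, and its difference of -0.25 ± 0.09 did not pass (adjusted p = 0.0689 by limma). It passed at -0.72 with the program's own ratios (adjusted p = 0.037 by limma) and at -1.22 in Cy5 alone (adjusted p = 0.0182). Its signal was near background, well above it on 2 KO and 3 WT arrays. H1f4 had a difference of -0.87 ± 0.54 (adjusted p = 0.251 by limma), with a standard error set by KO replicate 1, and -0.13 ± 0.15 without that array. The remaining 4, H1f0, H1f1, H1f5 and H1f8, had differences between -0.22 and 0.15 and were not called.

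In H2A, 1 of 11 genes was called (against 35.3% of all genes), and it was lower. H2ac6 (Hist1h2ac) had -0.93, -0.97 and -0.76 in KO cells, against 0.12, -0.49 and 0.07 in WT cells. The KO values lay close together and below all WT values, and the difference was -0.79 ± 0.17 (SE, n = 3 each; adjusted p = 0.00919 by limma), 1.73-fold lower in KO. It was -1.45 with the program's own ratios and -1.32 in Cy5 alone, called in both. H2ac21 had -0.30, -0.27 and 0.09 in KO cells, against 0.08, -0.04 and 0.43 in WT cells, and H2ac1, the testis H2A, had 0.00, -0.16 and 0.00 in KO cells, against 0.16, -0.06 and 0.15 in WT cells. Both sets overlapped and neither gene passed (adjusted p = 0.16 and 0.368 by limma). H2ac22 had 0.01, 0.48 and 0.56 in KO cells, against 0.01, 0.12 and 0.25 in WT cells.

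H2ac22 is 1 of 7 H2A genes, with H2ac10, H2ac11, H2ac12, H2ac15, H2ac19 and H2ac20, whose probes gave nearly the same value on each array. These 7 values ran from -0.13 to 0.03, from 0.35 to 0.49 and from 0.42 to 0.61 on the arrays of KO replicates 1, 2 and 3, against -0.12 to 0.12, 0.11 to 0.18 and 0.25 to 0.36 on those of WT replicates 1, 2 and 3. In each of the 7 genes KO replicates 2 and 3 lay above all WT values and KO replicate 1 lay near or below the lowest of them. The clustered H2A genes encode near-identical proteins, the probe sequences were not used here, and whether these probes read 1 or several of the genes was not tested, so the 7 are best counted as a single uncertain measurement. They make up 7 of the 25 genes with KO replicate 1 at least 0.4 below the other KO arrays and 4 of the 9 called higher without that array. All 7 are also among the 18 genes in which KO replicates 2 and 3 lay above all WT values. Another probe of H2ac19, at a lower signal, differed from this pattern, with -1.52, -1.61 and -1.52 in KO cells, against -0.03, -0.61 and 0.18 in WT cells. It stands at a difference of -1.40, against 0.05 for the brighter probe that represents the gene. Another probe of H2ac15 gave a difference of 0.47, against 0.14 for the brighter one.

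In H2B, 1 of 9 genes was called (against 35.3% of all genes), and it was lower. H2bc8 had -0.67, -0.70 and -0.41 in KO cells, against 0.26, -0.05 and 0.45 in WT cells. The groups did not overlap, and the difference was -0.81 ± 0.15 (SE, n = 3 each; adjusted p = 0.00463 by limma), 1.76-fold lower in KO. It was -1.71 with the program's own ratios and -1.51 in Cy5 alone, called in both. H2bc4 had -1.06, -0.49 and -0.25 in KO cells, against 0.33, -0.47 and 0.17 in WT cells, where WT replicate 2 fell among the KO values and the difference of -0.61 ± 0.26 did not pass (adjusted p = 0.102 by limma). H2bc21 had -0.52, -0.25 and -0.34 in KO cells, against -0.07, -0.30 and -0.06 in WT cells. H2bc4 and H2bc21 are known in human cells to yield polyadenylated messages as well as stem-loop ones. H2bc3 had 0.35, 0.40 and 0.18 in KO cells, against -0.17, 0.02 and 0.19 in WT cells, and did not pass (0.30 ± 0.12, adjusted p = 0.1 by limma). The remaining 5 H2B genes had differences between -0.14 and 0.08.

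In H3, 1 of 7 genes was called (against 35.3% of all genes), and it was higher. H3c3 had 0.75, 0.52 and 0.56 in KO cells, against 0.08, 0.19 and 0.17 in WT cells. All KO values exceeded all WT values, and the difference was 0.46 ± 0.10 (SE, n = 3 each; adjusted p = 0.0111 by limma), 1.37-fold higher in KO, and it was 0.77 with median centring. H3c4 had -0.80, -0.06 and -0.08 in KO cells, against -0.12, 0.08 and 0.12 in WT cells, and H3c7 had -0.40, 0.25 and 0.22 in KO cells, against -0.12, 0.19 and 0.32 in WT cells. In both the low KO value was that of replicate 1. H3c8 had 0.24, 0.20 and -0.01 in KO cells, against -0.18, 0.14 and 0.12 in WT cells, with groups that overlapped.

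In H4, 1 of 8 genes was called (against 35.3% of all genes), and it was higher. H4c9 had 0.91, 0.83 and 0.82 in KO cells, against 0.02, 0.24 and 0.23 in WT cells. The KO values were the closest together of the 6 called genes, and the difference was 0.69 ± 0.10 (SE, n = 3 each; adjusted p = 0.00182 by limma), 1.62-fold higher in KO. Its other probe had 0.55, 0.72 and 0.62 in KO cells, against -0.06, 0.29 and 0.20 in WT cells. H4c8 had 0.48, 0.04 and 0.44 in KO cells, against -0.18, 0.19 and 0.15 in WT cells, and H4c17 had 0.51, 0.25 and 0.42 in KO cells, against 0.09, 0.32 and 0.30 in WT cells. Both overlapped with WT and did not pass (adjusted p = 0.229 and 0.329 by limma). The 5 genes with low KO replicate 1 values had differences between -0.41 and -0.02 with all arrays and between 0.17 and 0.38 without that array. Since all H4 genes encode the same or nearly the same protein, probes for this class could also take signal from related messages, which was not tested.

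The arrays lay in 2 rows of the slide, with all KO arrays and WT replicate 1 in row 1 and WT replicates 2 and 3 in row 2. With the row as a block the difference is that within row 1, against WT replicate 1 alone. H4c9 at 0.84 (adjusted p = 0.0127 by limma), H1f10 at 0.67 (adjusted p = 0.0363) and H2ac6 at -1.01 (adjusted p = 0.0315) were still called. H2bc8 at -0.86 (adjusted p = 0.0506), H1f2 at -0.88 (adjusted p = 0.0655) and H3c3 at 0.53 (adjusted p = 0.069) were not.

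The other genes of S phase stood higher in KO cells on all 3 KO arrays, KO replicate 1 included. Of 29 S phase genes tested, 26 were called higher in KO and none lower, with a median difference of 0.57, against 15.4% called higher over all genes. Their mean ratio was 0.71, 0.60 and 0.62 on the arrays of KO replicates 1, 2 and 3, against 0.05, 0.17 and 0.00 on those of WT replicates 1, 2 and 3. On the same arrays the median histone ratio was -0.15, 0.25 and 0.42 in KO cells, against 0.03, 0.13 and 0.25 in WT cells. Mcm3, Mcm6 and Mcm4, subunits of the replicative helicase, differed by 1.10, 0.89 and 0.82. Of 15 mitosis genes, 14 were called higher (against 15.4% of all genes), with a median of 0.60. Among them were the kinesin gene Cenpe (0.99), the cyclin gene Ccna2 (0.79) and the topoisomerase gene Top2a (0.85). Whether the histone genes and the S phase genes differ in their change was not tested.

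**Figure D5:**
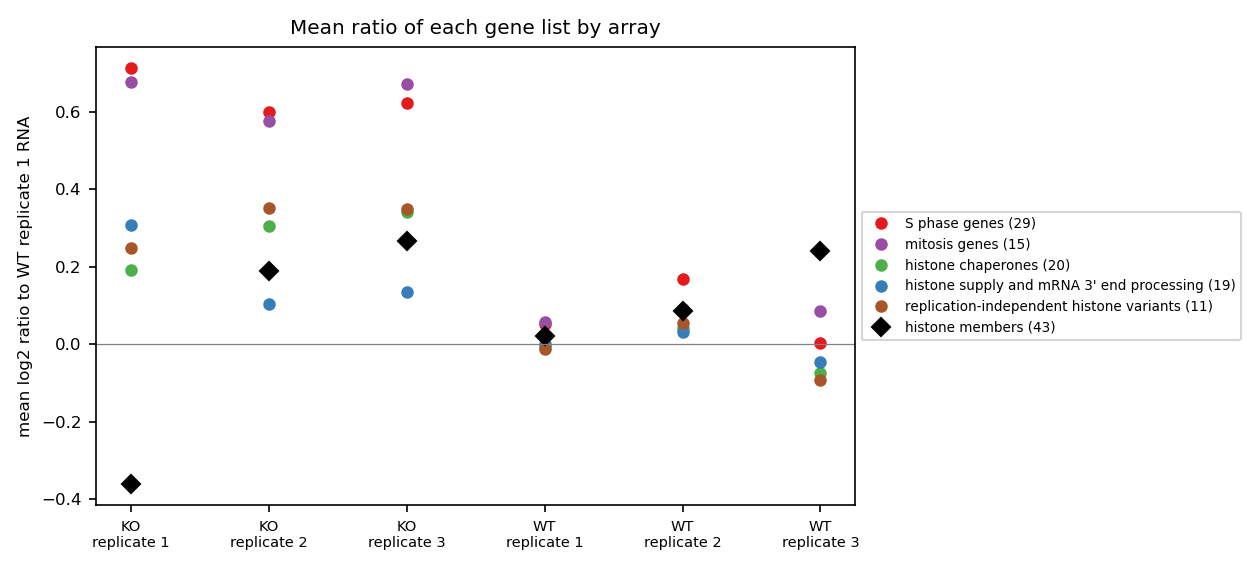
Mean log2 ratio to WT replicate 1 RNA on each array, for the 43 histone genes (black diamonds) and for 5 lists of related genes (coloured points), with the number of genes tested in brackets. S phase and mitosis genes lie above every WT array on all 3 KO arrays, while the histone mean is below 0 on the array of KO replicate 1 alone.

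Of 20 histone chaperone genes, 6 were called higher (against 15.4% of all genes) and none lower (against 19.9%), with a median of 0.24. They included Hjurp (1.10), which deposits the centromeric H3 variant, Chaf1a (0.69), a subunit of the factor that deposits H3 and H4 behind the replication fork, and Nap1l1 (0.67), a carrier of H2A and H2B. The count called higher was 9 without KO replicate 1, against 16.0% of all genes in that fit. The median position of KO replicate 1 relative to the other KO arrays was 0.06 over the 20 genes, against -0.49 over the histone genes and 0.08 over all genes. Single chaperone genes were low on that array. Hira, chosen after its values were seen, had -1.40, 0.21 and 0.26 in KO cells, against -0.06, -0.09 and 0.06 in WT cells. Asf1a, chosen likewise, had -0.76, 0.38 and 0.40 in KO cells, against 0.20, 0.01 and -0.06 in WT cells. Others, such as Hjurp (0.42) and Nap1l1 (0.40), had KO replicate 1 above the mean of the other KO arrays.

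Of 19 genes for histone supply and 3′ end processing, 3 were called higher (against 15.4% of all genes) and 1 lower (against 19.9%), with a median of 0.20. Without KO replicate 1, 4 were called higher and 1 lower, with a median of 0.11. Coil (0.61), the gene for the Cajal body protein coilin, Casp8ap2 (0.69), the gene for a factor of the histone locus body, and Eri1 (0.63), the gene for an exonuclease that trims the stem-loop, were called higher. Mif4gd, whose product binds SLBP in histone translation, was called lower at -0.62. Slbp, chosen after its values were seen, went the other way from the histone genes on the array of KO replicate 1, with 1.03, 0.11 and 0.09 in KO cells, against -0.01, -0.17 and -0.28 in WT cells. All KO values lay above the WT values, and the difference of 0.57 ± 0.24 did not pass (adjusted p = 0.106 by limma). Without KO replicate 1 it was 0.26 (adjusted p = 0.098 by limma).

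Of 11 replication-independent histone genes, which include H1f0 and H1f10 from the 43, 6 were called higher (against 15.4% of all genes) and none lower (against 19.9%). Their median was 0.39. Cenpa (0.68), the centromeric H3, Macroh2a2 (0.94), the gene for a macroH2A, and H2az2 (0.62), the gene for an H2A.Z, were the 3 with the smallest p. H3f3b, a gene for H3.3 chosen after its values were seen, had -1.23, -0.27 and -0.36 in KO cells, against 0.11, -0.03 and -0.05 in WT cells. KO replicate 1 was low for this gene, and its difference of -0.63 ± 0.24 did not pass with all arrays (adjusted p = 0.0741 by limma) and passed without KO replicate 1 at -0.32 (adjusted p = 0.0375). H3f3a went the other way, with 0.88, 0.40 and 0.38 in KO cells, against 0.16, 0.21 and 0.12 in WT cells. Over the 11 genes the median position of KO replicate 1 relative to the other KO arrays was 0.02.

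Of the 47 histone genes with a probe, 4 did not pass the filter on signal. H2bc22 was well above background on 2 arrays, H1f7 on 1, and H1f3 and H2ac8 on none. Just inside the filter were H2bc23 on 4 arrays and H1f6 on 5, and the other 41 genes were well above background on all 6.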

How the data were processed

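Sample and reference RNA were read on 6 Agilent 2-colour arrays, with Cy5 as the sample per the labels. The deposited files hold median spot and background intensities and log10 ratios of Cy5 over Cy3, per the file headers from Agilent Feature Extraction 10.7.3.1, whereas the submitters' processing notes name version 6.1. The deposited series matrix repeats those log10 ratios to within 0.00499. The series text calls the design single-colour, while labels and files hold 2 channels.

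Intensities were corrected by normexp (offset 50), normalised by loess within each array with control spots at weight 0, and averaged per probe after outlier spots were left out. Of 55681 probes, 27509 were named by accession through a RefSeq table of GRCm38.p6, and the brightest passing probe stood for its gene. No saturated spot was found among the histone probes. Differences of log2 ratios, computed from the deposited intensities, were tested in limma 3.58.1 (R 4.3.3) over 14771 genes, 2-sided, with 4 residual degrees of freedom, after the fit was tested on simulated data.

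The genes and lists were chosen with earlier results of these data known. Values are given for up to 4 genes per class with the smallest p, the 3 largest differences in each direction, the 4 genes with KO replicate 1 farthest from the other KO arrays, and 3 genes per other list. Alternatives covered ratio source, scaling, filter, probe choice, slide row, replicate block, array weights and left-out arrays. The number of arrays limits the precision. Promoter windows are RefSeq's.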

Additional observations from a re-analysis of the deposited data

How the results depend on the processing

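The histone counts depended on KO replicate 1 and on the scaling. Over fits that left out 1 array, the histone genes called higher numbered 3 to 9, those called lower 2 to 4, their median difference ran from -0.16 to 0.21, all genes called from 3239 to 5705, and the median position of KO replicate 1 from -0.51 to -0.46. The count of 9 higher and the median of 0.21 are those without KO replicate 1, where H1f5 turned to 0.62 (its lowest value over these fits was -0.69), and the count of 3239 is that without WT replicate 3. Median centring in place of loess moved the median of all genes to 0.24 and that of the histone genes to 0.23, gave 9 histone genes higher and 2 lower, and put 74.4% of called genes higher in KO, against 43.5% with loess. With the slide row as a block, 1 histone gene was called lower, 2 higher and 2212 genes in all, and 33.2% of called genes were higher. The replicate block gave 3 higher, 3 lower, a median of -0.03 and 5118 genes in all. Same-numbered samples deviated together at r = 0.13, 0.08 and 0.20, each above its other pairings. Deviations from a group mean of 3 arrays are tied to each other, so this order cannot show a pairing, and none is in the design. Limited to the 40 genes of the clusters, an alternative chosen after seeing the data, 2 were called higher and 3 lower. Of 351 values of named histone genes under alternatives, 334 stayed on the same side of the threshold, among them 15 uncalled values that changed sign, 8 lost and 8 gained a call, and 1 reversed. Lost calls were those of H1f2, H2bc8 and H3c3, and gained calls those of H1f6, H2ac22 and H2bc4. Of 240 values of the other lists' named genes, 229 kept their call and 11 lost it. Beyond the array left out, the causes were not tested. Signal limits H1f6 and H2bc23, which were near background, at mean log2 Cy5 signals of 4.64 and 4.66. The called genes H2bc8 and H2ac6 were also dim, at 5.39 and 6.38, though well above background on all 6 arrays. The size of their differences changed with the ratio source, as given above.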
